A study of Drosophila melanogaster with 12 samples.

Results

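Lithium is known to inhibit both the kinase GSK3, which is encoded in flies by sgg, and the phosphatases that recycle inositol phosphates. The genes described here are sgg and 9 genes of inositol metabolism, namely the phosphatase genes Ipp, CG9391, CG9389, CG17026, CG17027, CG17028 and CG17029, the synthase gene Inos and the oxygenase gene Miox. They were taken as the probe sets whose platform annotation names exactly 1 gene and names one of these 10. The annotation used lists 14049 probe sets, against 18952 on the array, and probe sets it does not list could not be searched. Among those listed the rule found 9 probe sets for 9 genes, 1 for each gene. The gene sgg is not analysed here because no listed probe set names it.

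Fly heads (Drosophila melanogaster) gave the RNA for 12 Affymetrix arrays, in 4 groups of 3. Shu_50 is the mutant Shu given 50 mM, a treatment whose drug is named only by the series title, lithium. Shu_0 is the untreated mutant, CS_50 the wild type on 50 mM lithium, and CS_0 the untreated wild type. Shu, in full Shudderer, appears in the release 6 gene table among the names of para, a gene for a voltage-gated sodium channel. Sex, age, allele, length of treatment and the origin of the replicates are not given in the labels, so the p-values measure only the spread between these samples, which may be technical.

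In phosphoinositide signalling, phospholipase C cuts a membrane lipid and releases inositol trisphosphate, which opens calcium channels of the endoplasmic reticulum. Phosphatases then strip the phosphates one after another. Inositol polyphosphate phosphatase acts on bisphosphates, inositol monophosphatase frees inositol from the last intermediate, and the free inositol is built back into phosphatidylinositol. Inositol is also made anew from glucose phosphate by inositol phosphate synthase, and it is broken down to glucuronate by inositol oxygenase. Fly photoreceptors, which make up much of the head's sensory tissue, signal through phospholipase C.

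The median signal of an array was 23.9 to 25.8 intensity units, within-group correlations across probe sets were 0.985 to 0.989, and precision is limited by having 3 arrays a group. The arrays standing farthest apart on the leading principal component (18.1% of the variance) were Shu_0 replicate 1, at 18.0, and CS_0 replicate 3, at -20.5, so the fit was also made without both. Markers of the head's own tissues passed the filter on low values wherever they were measured (3 of 3 genes for neurons, 4 of 4 for glia, 4 of 4 for fat body, and trp alone for photoreceptors and Tm2 alone for muscle). Of the markers of other organs, 1 of 4 measured midgut genes, 2 of 8 testis genes and 3 of 5 ovary genes passed it. In bulk heads, fewer cells of a type and less RNA per cell cannot be told apart.

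The oxygenase gene Miox was the 1 member called for lithium, and it was higher with lithium in the mutant. Between the genotypes 3 members were called when averaged over both treatments. In that average the mutant had less signal of Inos and Miox and more of the monophosphatase gene CG9391. The difference of Miox was log2 -0.64 without lithium and only -0.07 on lithium. That of Inos was -0.45 and -0.41, and that of CG9391 was 0.34 and 0.14. Of these, CG9391 and Miox were also called without lithium, Inos was called only in the average, and on lithium 0 members were called. No call was made for Ipp or for the 4 monophosphatase genes CG17026 to CG17029 in any comparison. Calls are differences with an adjusted p (Benjamini-Hochberg, over the 11261 probe sets that passed the filter) under 0.05 in a limma fit of all 12 arrays. CG9389 did not pass the filter, which left 8 of the 9 members tested.

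Counted over the 8 tested members, lithium in the mutant gave 1 call by limma, Miox, where 1.86% of all probe sets tested were called, 1.21% higher. Lithium in the wild type gave 0 calls by limma against a background of 1.62%, and 0 members had an unadjusted p under 0.05 (13.1% of all probe sets). Without lithium the genotypes differed in 2 members, CG9391 higher in the mutant and Miox lower, where the background was 5.06%, made up of 2.11% higher and 2.95% lower. On lithium 0 members were called by limma against a background of 0.506%, and Inos alone had an unadjusted p under 0.05 (11.6% of all probe sets). The interaction gave 0 calls by limma against 0.00888%, and Miox and Ipp had an unadjusted p under 0.05 (6.73% of all probe sets). Averaged over genotypes, lithium called 1 member (background 4.14%), and averaged over treatments the genotype called 3 (background 7.91%).

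Counts of members whose groups did not overlap include those called. For lithium in the mutant 2 of 8 members did not overlap (15.8% of all probe sets), and for lithium in the wild type 3 did not (19.1%). Between the genotypes 5 of 8 members did not overlap without lithium (23.2% of all probe sets) and 2 did not on lithium (18.9%). Median differences over the members were log2 -0.06 for lithium in the mutant (-0.01 over all probe sets) and 0.01 for lithium in the wild type (0.00). They were 0.13 for the untreated genotypes (0.01 over all probe sets), 0.01 for the genotypes on lithium (-0.01) and -0.09 for the interaction (-0.01).

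**Figure D1:**
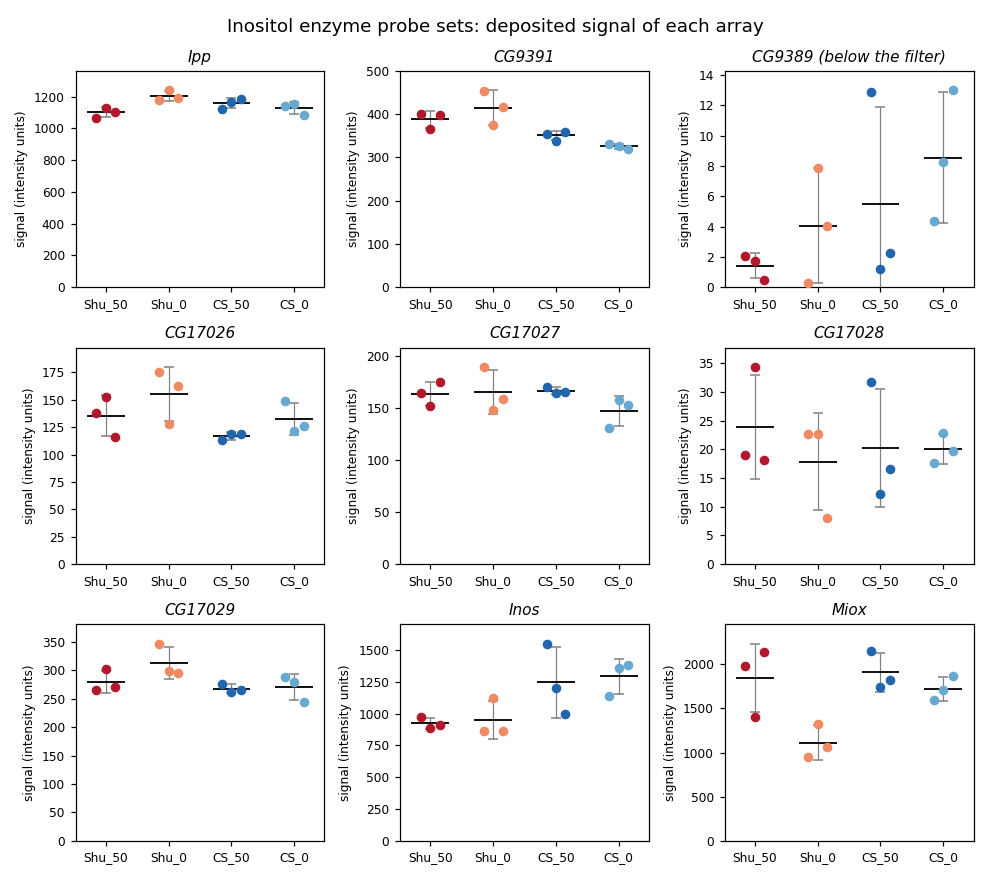
Deposited signal in intensity units (vertical axis from 0, its own scale for each probe set) of the 9 measured inositol genes in the groups Shu_50, Shu_0, CS_50 and CS_0. Points are arrays in replicate order, black lines are group means and grey bars the SD of 3 arrays, clipped at 0. Miox lies lowest in Shu_0 (mean 1112) and Inos is lower in both mutant groups (means 923 and 950.0) than in both wild type groups (1247 and 1292).

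Ipp (probe set 1626217_at) encodes the inositol polyphosphate phosphatase, the lithium-sensitive enzyme that acts before the monophosphatases. Its signal in replicates 1 to 3 was 1067, 1130.2 and 1105 in Shu_50 and 1179, 1239 and 1188 in Shu_0. In the wild type it was 1124, 1169 and 1185 in CS_50 and 1144, 1153 and 1087 in CS_0. All 3 Shu_50 arrays lay below all 3 Shu_0 arrays, while the wild type groups overlapped. The lithium difference in the mutant was log2 -0.13 (SE 0.05, adjusted p = 0.326 by limma) and that in the wild type 0.04 (SE 0.05, adjusted p = 0.823). Ipp was the steadiest of the 9 probe sets, with a highest array only 1.16 times its lowest. The intervals of its 4 differences between groups all lay between log2 -0.24 and 0.20 (95%).

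CG9391 (probe set 1641502_a_at) belongs to the inositol monophosphatase family, whose enzymes release free inositol. In the mutant its signal was 400.1, 365 and 398 in Shu_50 and 454, 375 and 416 in Shu_0. In the wild type it was 354, 338 and 359 in CS_50 and 331.5, 326 and 319 in CS_0. Every mutant array lay above every wild type array, on lithium and without it. The group means were 388 ± 19.7 in Shu_50, 415 ± 39.7 in Shu_0, 351 ± 10.9 in CS_50 and 325 ± 6.50 in CS_0 (SD, n = 3 arrays each), highest in Shu_0 and lowest in CS_0.

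Without lithium CG9391 was higher in the mutant by log2 0.34 (SE 0.07, 1.27-fold, limma adjusted p = 0.0137). On lithium the difference was 0.14 (SE 0.07, 95% interval -0.01 to 0.29, adjusted p = 0.463), which was not called. Averaged over both treatments the mutant was higher by 0.24 (SE 0.05, adjusted p = 0.00792). For lithium the difference was -0.09 in the mutant (interval -0.25 to 0.06) and 0.11 in the wild type (-0.05 to 0.26), and neither was called. The call without lithium was lost without the intensity trend (adjusted p = 0.0792), without Shu_0 replicate 1 (0.28, adjusted p = 0.0810), without CS_0 replicate 3 (0.33, adjusted p = 0.0601) and without both (0.26, adjusted p = 0.202). The averaged call was kept without any single array and was 0.20 (adjusted p = 0.0501) without both.

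CG17026, CG17029, CG17028 and CG17027 stand next to one another in this order on chromosome arm 3L, with no other gene between them in the release 6 gene table. All 4 belong to the monophosphatase family, and CG9391 and CG9389 are a further pair of neighbours on the same arm. CG17029 (probe set 1639911_at) had a signal of 266, 302 and 270.3 in Shu_50 and of 346, 299 and 295 in Shu_0. In CS_50 its values were 277, 262 and 265, and in CS_0 they were 288, 279.6 and 245. The Shu_0 arrays all lay above both wild type groups, and the Shu_50 arrays overlapped those of Shu_0 and of CS_50. Its difference between the untreated genotypes was log2 0.21 (SE 0.08, interval 0.03 to 0.38), with an adjusted p of 0.168 by limma, so it was not called.

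CG17026 (probe set 1633637_at) had 138, 153 and 116 in Shu_50, 175, 128 and 163 in Shu_0, 113, 119 and 119 in CS_50, and 149, 122 and 126 in CS_0. The CS_50 arrays all lay below those of CS_0 and of Shu_0, and in the other 3 comparisons the groups overlapped. Its lithium difference was log2 -0.18 in the mutant and -0.16 in CS flies (SE 0.12 each, limma adjusted p = 0.617 and 0.628). Averaged over both treatments the genotype difference was 0.21 (SE 0.09, adjusted p = 0.161), and this was called only without Shu_0 replicate 2 (0.27, adjusted p = 0.0449).

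CG17027 (probe set 1628821_at) had 165, 151 and 174 in Shu_50, 189, 148 and 158 in Shu_0, 170.1, 164 and 165 in CS_50, and 131, 158 and 152 in CS_0. Its CS_50 arrays all lay above its CS_0 arrays, which is the opposite side from CG17026. The lithium difference was log2 -0.01 in the mutant (SE 0.10, limma adjusted p = 0.984) and 0.18 in the wild type (SE 0.10, adjusted p = 0.482). CG17028 (probe set 1624975_at) was dim and scattered, between 8.03 and 34.3 over the 12 arrays, and the groups overlapped in all 4 comparisons. Its standard error of log2 0.32 left intervals of its 4 differences within -0.88 to 1.04.

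CG9389 (probe set 1633184_at) was the dimmest member. Its signal was 2.03, 1.71 and 0.475 in Shu_50, 0.302, 7.87 and 4.03 in Shu_0, 12.9, 1.21 and 2.28 in CS_50, and 4.36, 8.24 and 13.0 in CS_0. The groups overlap in all 4 comparisons, and the values lie around the offset of 6.16 units that was added before taking logs. In the fit without a filter no difference was called (adjusted p between 0.352 and 0.997 by limma).

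Inos (probe set 1635848_at) encodes inositol phosphate synthase, the enzyme of new inositol synthesis. Its signal was 971, 885 and 914 in Shu_50 and 867, 1119.8 and 863 in Shu_0. In the wild type it was 1547, 1199 and 995 in CS_50 and 1138, 1359 and 1379.9 in CS_0. The mutant arrays lay below the wild type arrays within each treatment, by a narrow margin in both (971 against 995 on lithium, and 1119.8 against 1138 without). Shu_0 replicate 2, the highest untreated mutant array, overlapped the range of CS_50.

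Averaged over both treatments Inos was lower in the mutant, with a difference of log2 -0.43 (SE 0.09, 0.743-fold, limma adjusted p = 0.00856). The difference was of like size without lithium (-0.45, SE 0.13, interval -0.72 to -0.18) and on lithium (-0.41, SE 0.13, interval -0.68 to -0.14). Neither was called on its own (adjusted p = 0.0545 and 0.189). The lithium difference was -0.03 in the mutant (interval -0.30 to 0.24, adjusted p = 0.961) and -0.07 in the wild type (interval -0.34 to 0.20, adjusted p = 0.882), and neither was called. The averaged call was kept without any single array and was lost without the intensity trend (adjusted p = 0.0672) and with Shu_0 replicate 1 and CS_0 replicate 3 both left out (-0.37, adjusted p = 0.0698). Without lithium the difference was called in 6 of the 21 alternative settings, among them the fit without Shu_0 replicate 2 (-0.57, adjusted p = 0.0193).

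Miox (probe set 1639424_at) encodes inositol oxygenase, which opens the inositol ring on the way to glucuronate. Its signal was 1981, 1405 and 2139 in Shu_50 and 945, 1329 and 1061 in Shu_0. In the wild type it was 2155, 1744 and 1822 in CS_50 and 1593, 1712 and 1866 in CS_0. The 3 untreated mutant arrays were the lowest of all 12. The treated mutant overlapped both wild type groups, and the wild type groups overlapped each other. Group means were 1842 ± 387 in Shu_50, 1112 ± 197 in Shu_0, 1907 ± 218 in CS_50 and 1724 ± 137 in CS_0 (SD, n = 3 arrays each). In order of level CS_50 came first, then Shu_50, CS_0 and Shu_0, and the means of the upper 3 differed by less than the SD of CS_50.

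In the mutant, Miox rose with lithium by log2 0.72 (SE 0.14, 1.64-fold, interval 0.43 to 1.01, limma adjusted p = 0.00822). Without lithium the mutant was lower than the wild type, with log2 -0.64 (SE 0.14, 0.641-fold, adjusted p = 0.0146). These 2 comparisons share the Shu_0 arrays, which also enter the 2 averaged comparisons given below, so the Miox calls are not independent of one another. In the wild type the lithium difference was 0.14 (interval -0.15 to 0.43, adjusted p = 0.728), and on lithium the genotypes differed by -0.07 (interval -0.36 to 0.22, adjusted p = 0.898). The interaction, which tests whether lithium acted differently in the genotypes, was 0.57 (SE 0.19, interval 0.16 to 0.98) with an unadjusted p of 0.00899 and an adjusted p of 0.661, so a difference between the genotypes in the lithium response was not called.

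Several arrays decided these Miox calls. The rise in the mutant was not called without Shu_50 replicate 1 (0.65, adjusted p = 0.0522), without Shu_0 replicate 1 (0.61, adjusted p = 0.0639, the same value with CS_0 replicate 3 left out too, adjusted p = 0.0676) or without the intensity trend (adjusted p = 0.107). The lower signal in the untreated mutant lost its call without Shu_0 replicate 1 (-0.53, adjusted p = 0.0870), Shu_0 replicate 3 (-0.62, adjusted p = 0.0562) or CS_0 replicate 3 (-0.58, adjusted p = 0.0757). The same call was also lost without Shu_0 replicate 1 and CS_0 replicate 3 together (-0.47, adjusted p = 0.250) and without the intensity trend (adjusted p = 0.0933). Averaged over the genotypes, lithium gave 0.43 (SE 0.10, adjusted p = 0.0161), lost without Shu_50 replicate 1 (adjusted p = 0.0502), without Shu_0 replicate 1 (adjusted p = 0.0505), without Shu_0 replicate 1 and CS_0 replicate 3 (adjusted p = 0.0558) or without the intensity trend (adjusted p = 0.118). Averaged over the treatments, the mutant stood at -0.35 (SE 0.10, adjusted p = 0.0328), a call that 10 of 20 alternative settings lost. Among these was the fit without Shu_0 replicate 1 and CS_0 replicate 3 (-0.27, adjusted p = 0.184).

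Other measures moved with the same groups. Summed signal of the 5 measured ovary markers was 43.8 to 55.6 in Shu_50 and 96.8 to 192 in Shu_0, and the muscle marker Tm2 was 2697 to 2740 in Shu_50 and 2406 to 2437 in Shu_0, with no overlap in either. The 4 midgut markers summed to 31.2 to 60.1 in Shu_50 and to 70.0, 459 and 80.1 in Shu_0, and the array with 459, replicate 2, had the highest Miox signal of its group. Across the groups, midgut sums were higher in Shu_0, where Miox was lower. Only 1 of the 4 midgut and 3 of the 5 ovary markers had passed the filter on low values. Fat body markers overlapped between these groups (31899 to 40406 in Shu_50 and 36632 to 43757 in Shu_0). Between the untreated genotypes, neuron, glia, fat body, testis and ovary sums overlapped, while midgut sums (70.0 to 459 in Shu_0 and 47.5 to 56.5 in CS_0) and Tm2 (2406 to 2437 in Shu_0 and 2449 to 2509 in CS_0) did not. As a sign of RNA quality, the log2 of 3' over 5' signal of the control gene eIF-4a was 2.46 to 2.65 in Shu_0 and 2.66 to 2.96 in CS_0, also without overlap. The same ratio overlapped between these groups for GAPDH (0.96 to 1.07 in Shu_0 and 1.00 to 1.08 in CS_0) and for actin (0.98 to 1.26 in Shu_0 and 1.18 to 1.28 in CS_0). Between the genotypes on lithium there was no overlap for Tm2 (2697 to 2740 in Shu_50 and 2508 to 2598 in CS_50, the opposite direction to that without lithium), for ovary markers (43.8 to 55.6 in Shu_50 and 62.4 to 74.8 in CS_50) or for fat body markers (31899 to 40406 in Shu_50 and 30548 to 31695 in CS_50). The part of these measures in the differences of Miox, CG9391 and Inos was not tested.

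**Figure D2:**
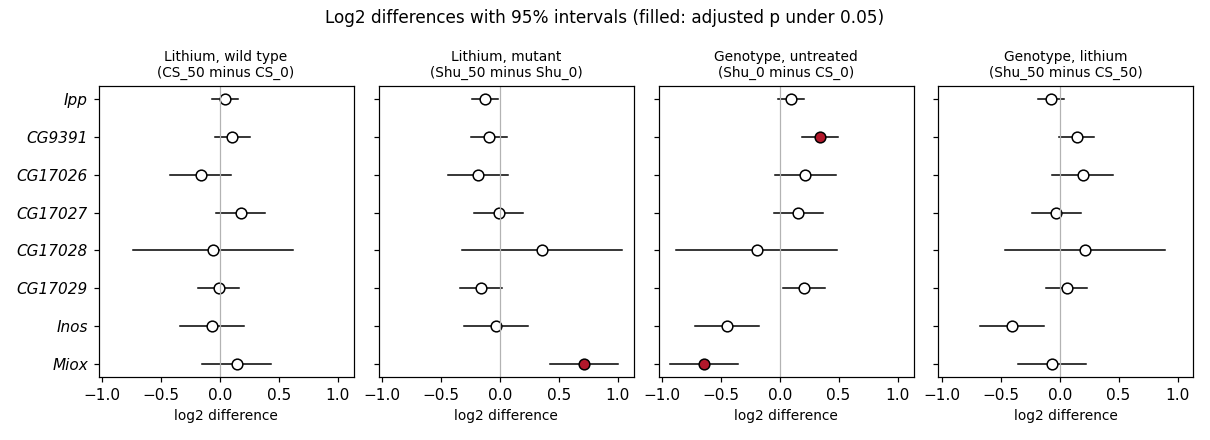
Fitted log2 differences (horizontal axis) with 95% intervals for the 8 tested genes, 1 panel for each of the 4 comparisons. Filled points were called, namely Miox for lithium in the mutant (0.72) and CG9391 (0.34) and Miox (-0.64) for the untreated genotypes. Intervals of CG17028 are the widest.

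**Figure D3:**
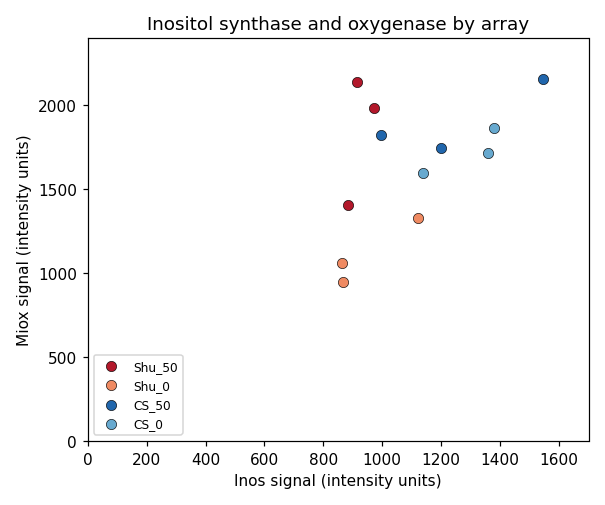
Signal of Miox (vertical axis, intensity units) against that of Inos (horizontal axis, intensity units), with 1 point for each of the 12 arrays, coloured by group. The 6 mutant arrays have Inos signals of 863 to 1119.8, and the 3 untreated mutant arrays have the lowest Miox signals (945 to 1329).

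As a description, the genes with the most similar course over the 12 arrays were found among the 9613 tested probe sets that name 1 gene. For Inos they were Pomp (Pearson r = 0.96), ple, which encodes tyrosine hydroxylase of dopamine synthesis (r = 0.93), and RN-tre (r = 0.92). The mean signal of ple was 76.8 in Shu_50, 78.7 in Shu_0, 98.0 in CS_50 and 116 in CS_0, so that it too was lower in both mutant groups. For Miox they were nebu, CG13868 and CG32444 (r = 0.91 each). The mean signal of nebu was 1291 in Shu_50, 967 in Shu_0, 1573 in CS_50 and 1515 in CS_0, lowest in the untreated mutant as for Miox. The 12 points share 4 groups, and these genes were picked as the highest of 9613 correlations, so no test is given.

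Genes around the inositol enzymes were taken from 4 lists with 56 genes, of which 42 had a tested probe set, 57 probe sets in all. Of the 57, lithium called 1 in each genotype, fbp both times, and the untreated genotypes differed in 3. Over all probe sets 1.86% were called for lithium in the mutant, 1.62% for lithium in the wild type and 5.06% between the untreated genotypes. On lithium the genotypes differed in 0 of the 57 by limma against 0.506% of all probe sets, with 1 higher and 6 lower at an unadjusted p under 0.05 (11.6% of all probe sets). The interaction gave 0 by limma against 0.00888%, with 2 higher and 5 lower at an unadjusted p under 0.05 (6.73% of all probe sets). Averaged over genotypes, lithium called 2 of the 57, each higher (4.14% of all probe sets called). Averaged over treatments, the genotype called 4 of the 57, each lower (7.91% of all probe sets called). Median differences of the 57 lay between log2 -0.06 and 0.01 over the 7 comparisons.

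**Figure D4:**
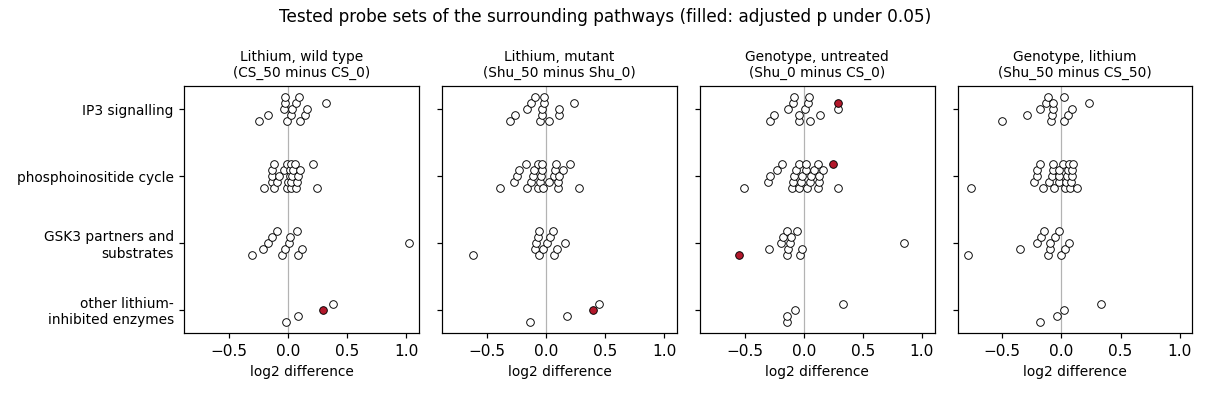
Fitted log2 differences (horizontal axis) of the 57 tested probe sets of the 4 surrounding lists (rows), 1 panel for each of the 4 comparisons, with called probe sets filled. Called are fbp under lithium (0.40 in the mutant and 0.29 in the wild type), and Mipp1 (0.29), 1 probe set of Pis (0.25) and CkIalpha (-0.54) between the untreated genotypes.

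In the list of inositol trisphosphate signalling, with 14 tested probe sets of 11 genes, 1 was called. Mipp1, a multiple inositol polyphosphate phosphatase, had 350.1, 368 and 378 in Shu_0 and 331, 289.5 and 274 in CS_0. The untreated mutant was higher by log2 0.29 (SE 0.08, limma adjusted p = 0.0417), and 12 of 21 alternative settings lost this call. Galphaq, the G protein subunit that activates phospholipase C, had its lowest p for lithium in the wild type, where probe set 1639773_s_at gave -0.17 (SE 0.06, adjusted p = 0.174). Its other tested probe sets, 1624798_s_at and 1630524_at, gave -0.04 and -0.01 in that comparison, with overlapping arrays.

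The phosphoinositide cycle, with 26 tested probe sets of 17 genes, held calls for Pis and rdgA. Pis encodes phosphatidylinositol synthase, which joins free inositol to a lipid. Its probe set 1625595_a_at was higher in the untreated mutant by 0.25 (SE 0.07, limma adjusted p = 0.0478), a call that 17 of 21 alternative settings lost. The brightest probe set of Pis, 1627102_at, had 3002, 2912 and 2975 in Shu_0 and 2999, 3123 and 3045 in CS_0, which overlap, and gave -0.04 (SE 0.05, adjusted p = 0.698). A dim probe set, 1636027_at, gave -0.63 averaged over treatments (SE 0.18, adjusted p = 0.0345), a call that 10 of 19 alternative settings lost. The calls of these probe sets of Pis thus had opposite signs. The diacylglycerol kinase gene rdgA, which acts in photoreceptors, was lower in the mutant averaged over treatments from probe set 1626192_at (-0.26, SE 0.08, adjusted p = 0.0461), a call that 13 of 20 settings lost, while its other 3 probe sets were not called. Between the untreated genotypes 1626192_at gave -0.29 (adjusted p = 0.137) and 1628730_at gave 0.13 (adjusted p = 0.313), the groups not overlapping for either one, so these probe sets disagreed in sign. The lowest p of rdgA in the 4 main comparisons was that of 1628730_at for lithium in the mutant (-0.27, SE 0.07, adjusted p = 0.0515), which was not called.

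Among the partners and substrates of GSK3, with 13 tested probe sets of 10 genes, CkIalpha gave the most stable call. This casein kinase primes proteins such as beta-catenin for phosphorylation by GSK3. Its signal was 912, 757 and 997 in Shu_50, 764, 981 and 862 in Shu_0, 1051, 1028 and 975 in CS_50, and 1253, 1165 and 1383 in CS_0. The untreated mutant arrays all lay below the untreated wild type arrays, with a difference of log2 -0.54 (SE 0.10, limma adjusted p = 0.00613). This call was lost without the intensity trend, and also when Shu_0 replicate 1 was left out along with CS_0 replicate 3 (-0.39, adjusted p = 0.142). Averaged over both treatments the genotype difference was -0.37 (SE 0.07, adjusted p = 0.00383) and was called in all 20 settings. On lithium alone it was -0.20 (SE 0.10, adjusted p = 0.442), with overlapping arrays. For lithium in the wild type the difference of CkIalpha was -0.31 (SE 0.10, adjusted p = 0.141), not called although the arrays did not overlap. The microtubule protein gene tau stood at -0.23 in the mutant averaged over treatments (SE 0.07, adjusted p = 0.0452), a call that 13 of 20 settings lost. For futsch, a further microtubule protein gene, the dim probe set 1624600_at gave 1.02 for lithium in the wild type (SE 0.31, adjusted p = 0.131), whereas its brightest probe set 1638205_s_at gave 0.00 (SE 0.06).

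The fourth list held 4 further enzymes that lithium is known to inhibit, or their relatives. For fbp, which encodes the gluconeogenic fructose bisphosphatase, the signal was 1938, 1852 and 1975 in Shu_50 and 1488, 1475 and 1415 in Shu_0. It was 2065, 1889 and 1963 in CS_50 and 1652, 1583 and 1585 in CS_0. The lithium arrays lay above the untreated arrays in both genotypes. In the wild type, fat body sums (30548 to 31695 in CS_50 and 35519 to 41528 in CS_0), glia sums (6494 to 7068 and 7164 to 8414) and the log2 of 3' over 5' signal of eIF-4a (2.43 to 2.51 and 2.66 to 2.96) did not overlap either, nor did midgut sums (36.7 to 39.9 and 47.5 to 56.5) or ovary sums (62.4 to 74.8 and 75.8 to 142). The log2 of 3' over 5' signal also did not overlap for GAPDH (0.87 to 0.99 in CS_50 and 1.00 to 1.08 in CS_0). For actin it overlapped (1.05 to 1.24 in CS_50 and 1.18 to 1.28 in CS_0). In the mutant, Tm2, ovary and midgut sums did not overlap between Shu_50 and Shu_0, as given above. The other marker sums and the 3' over 5' ratios overlapped there. The part of these measures in the fbp differences of either genotype was not tested. The fbp signal rose by 0.40 in the mutant (SE 0.05, limma adjusted p = 0.000416) and by 0.29 in the wild type (SE 0.05, adjusted p = 0.00707). The second call was lost without the intensity trend (adjusted p = 0.0801). Pgm1, the phosphoglucomutase gene, was higher by 0.13 with lithium averaged over genotypes (SE 0.04, adjusted p = 0.0467), a call that 14 of 20 settings lost.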

How the data were processed

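Per the labels, total RNA of whole heads was labelled by a standard Affymetrix protocol. The deposited values are linear intensity per probe set, and the software behind them is not given in the sources used here. Each column of the authors' deposited intensity had the same mean of 150.005 after trimming 2% at each end, so no further scaling was applied. The log2 scale is log2(deposited intensity + 6.16), with the pooled 25th percentile as offset. Without 183 control probe sets, those whose mean log2 value reached the 40th percentile, a signal of 11.5, were kept, 11261 in number and 9613 of them naming 1 gene. Gene names were matched by Entrez number to release 6. Groups were fitted in limma 3.58.1 (R 4.3.3) by lmFit and by eBayes with its trend option on, two-sided, with 8 residual degrees of freedom and Benjamini-Hochberg adjustment over all 11261. The procedure was first tested on simulated arrays. Errors marked SE are limma's moderated ones, and intervals cover 95%. Figures used matplotlib 3.10.9.

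The genes named are all members, each list gene called in any comparison, the 2 genes of lowest p in each list over the 4 main comparisons, and 3 genes most correlated with Inos and with Miox. Members and lists were chosen with earlier results of these data known. The title of CS_50 replicate 2 gives that number and its description gives sample 1, and the title was followed. Alternative settings changed the offset (none, or doubled), the filter (none, or the 60th percentile), the normalization (quantile), the intensity trend (off), the arrays fitted (those of 1 contrast, or all but 1) or added a replicate term. Leaving out CS_0 replicate 3 and Shu_0 replicate 1 together was added after seeing the data.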

Additional observations from a re-analysis of the deposited data

How the results depend on the processing

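For lithium in the wild type, the genotypes on lithium and the interaction, 0 members were called by limma under every alternative. No called difference of a member or list gene changed sign. Of 995 values of member differences that were not called, 51 had the other sign, and no direction is given for these. Group means of the members moved by less than 1 SD under quantile normalization. Without the intensity trend 0 members were called for lithium in the mutant, for the untreated genotypes and for lithium averaged, and 1, CG9391, for the genotype averaged. Without CS_0 replicate 3 and Shu_0 replicate 1 together all 4 of these counts were 0. With 1 array left out, the calls among members ranged from 0 to 1 for lithium in the mutant, from 0 to 3 for the untreated genotypes, from 0 to 1 for lithium averaged and from 2 to 4 for the genotype averaged.

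List counts, with 1 array left out, ranged from 1 to 2 for lithium in either genotype, from 1 to 6 for the untreated genotypes, from 1 to 3 for lithium averaged and from 1 to 7 for the genotype averaged. Without the intensity trend the list counts were 1 for lithium in the mutant and 0 in the wild type, 0 for the untreated genotypes, 1 for lithium averaged and 2 for the genotype averaged. Without both outlying arrays they were 1, 1, 0, 1 and 1 in this order, and the calls of Mipp1, Pis, rdgA, tau and Pgm1 were lost. The list count for lithium in the wild type was 3 from its own arrays alone. For lithium in the mutant it was 2 under quantile normalization, with the 60th percentile filter and with the replicate block. For the untreated genotypes it was 1 without a filter, from their own arrays alone and with the replicate block. Averaged over genotypes, lithium gave 1 without a filter and 1 with the replicate block, and the averaged genotype gave 1 without a filter. The cause of these shifts was not tested.

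Deviations of same-numbered arrays from their group means had 18 correlations of -0.06 to 0.09. Arrays of unlike number were not set beside them, so this cannot decide whether the numbers pair arrays. The replicate block changed no call among the members (Miox for lithium in the mutant, adjusted p = 0.0112), and moved all calls for the genotypes on lithium to 100, against 57. Counts over all probe sets ranged from 91 to 238 for lithium in the mutant (209 as reported), 44 to 243 in the wild type (182), 31 to 703 for the untreated genotypes (570), 25 to 100 on lithium (57), 0 to 2 in the interaction (1), 223 to 531 for lithium averaged (466) and 328 to 1066 for the genotype averaged (891). Low signal limits CG17028 and CG9389.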
